A study of Mus musculus with 6 samples.

Results

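Neurexins, neuroligins and LRRTM proteins are adhesion molecules that meet across the synaptic cleft. Neurexins sit mainly on the presynaptic membrane, and neuroligins and leucine-rich repeat transmembrane (LRRTM) proteins bind them from the postsynaptic side. The postsynaptic partners recruit scaffolds and neurotransmitter receptors: neuroligin 1 and the LRRTM proteins are known from excitatory synapses, neuroligin 2 from inhibitory synapses and neuroligin 3 from both. The 9 genes described here were the rows of the deposited expression table with the symbols *Nrxn2*, *Nrxn3*, *Nlgn1*, *Nlgn2*, *Nlgn3*, *Lrrtm1*, *Lrrtm2*, *Lrrtm3* and *Lrrtm4*, out of 45291 gene symbols in that table. They were taken by gene family.

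The study compared total RNA of primary hippocampal cultures of *Fmr1* knockout (KO) and wild type (WT) mice, both labelled C57BL/6, at day 14 in vitro. Each genotype had 3 libraries, and no treatment was given. *Fmr1* encodes FMRP, an RNA-binding protein that represses translation and is lost in fragile X syndrome. According to the methods, hippocampal neurons were cultured from newborn pups of either genotype, and the mice of the study were male *Fmr1* KO animals and WT littermates bred from heterozygous mothers. The knockout allele, the sex of the cultured pups and the litter of each library were not found in the labels or methods, so the p-values measure the spread between these libraries, which may in part be technical. Expression was given as FPKM, a fragment number divided by transcript length and library size. The division by length allows levels of different genes to be set side by side.

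The libraries labelled *Fmr1* KO did not have less *Fmr1* RNA. Its level was 18.99, 19.5 and 19.7 FPKM in WT and 23.1, 21.8 and 18.5 FPKM in *Fmr1* KO (adjusted p = 0.536, limma). This value covers the whole locus and cannot show a change limited to a few exons. In hippocampus taken from mice, the study detected FMRP protein by Western blot in WT but not in *Fmr1* KO, with genotypes checked by PCR. Those samples are other than the cultures described here. In the marker lists, excitatory (*Slc17a7*, 269 to 290 FPKM over the 6 libraries) and inhibitory (*Gad1*, 83.9 to 92.8 FPKM) neurons were well represented, and so were astrocytes (*Gfap*, 542 to 675 FPKM) and oligodendrocyte precursors (*Pdgfra*, 57.8 to 81.8 FPKM), so the values below are those of mixed cultures. Across tested loci, the correlation between libraries was 0.962 to 0.978, and the noncoding RNA Bc1 took 73.7 to 80.6% of the summed FPKM.

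Of the 9 genes, 8 were at 6.25 FPKM or more in every library and *Nrxn2* was listed at 0 in every library. Among the 8, *Nlgn2* was the most abundant transcript and *Lrrtm3* the least, with mean levels of 74.6 and 7.43 FPKM over the 6 libraries, a 10.0-fold range. These levels lay between percentiles 40.3 and 93.9 of the 13195 loci with a mean of at least 1 FPKM in either genotype, which were the loci tested. Log2 changes were estimated with limma on the log2(FPKM + 0.1) scale as *Fmr1* KO minus WT, with Benjamini-Hochberg adjustment over all tested loci. None of the 8 genes differed between genotypes at an adjusted p below 0.05, a threshold that 0.0909% of tested loci passed upward and 0.174% downward. At an unadjusted p below 0.05, 1 of the 8, *Lrrtm4*, was lower in *Fmr1* KO, against 7.77% of all tested loci, and none was higher, against 6.99%. The log2 change was above 0 for 3 genes and below 0 for 5, with a median of -0.03 beside 0.005 for all tested loci.

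**Figure D1:**
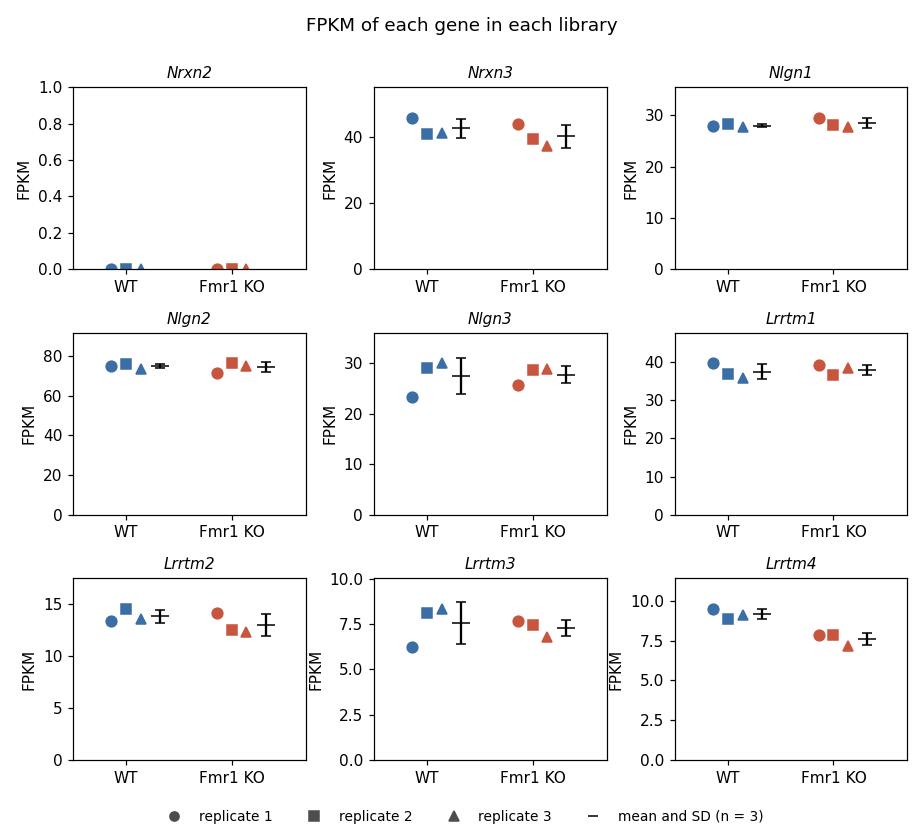
FPKM (y axis, starting at 0 in each panel) of each of the 9 genes in the 3 WT (blue) and 3 *Fmr1* KO (red) libraries, with symbols for the replicate number and the mean ± SD in black where a gene is above 0. The groups overlap in 7 of the 8 panels with expression, and in the *Lrrtm4* panel all WT libraries (8.87 to 9.51 FPKM) lie above all *Fmr1* KO libraries (7.18 to 7.85 FPKM).

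Neurexin 3 is encoded by *Nrxn3* (GRCm38 chromosome 12, 88722876 to 90334935, plus strand), the longest gene of the set, whose transcripts are spliced into many forms. Its level was 45.9, 40.9 and 41.2 FPKM in WT and 44.0, 39.4 and 37.4 FPKM in *Fmr1* KO. The replicate 1 library was the highest of each genotype, and the groups overlapped. The log2 change was -0.08 (SE 0.07, adjusted p = 0.639, limma), with a 95% interval from -15.9 to 5.80% relative to the WT level. FPKM of a whole locus do not separate the long and short forms of neurexin 3 or its splice variants.

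*Nrxn2* encodes neurexin 2 (chromosome 19, 6418731 to 6544169, plus strand), which is widely expressed in brain neurons. It had 2 loci in the table, on chromosome 19 and on an additional scaffold, and both were listed at 0 in all 6 libraries. The scaffold carried 21 gene symbols, all of them listed a second time on chromosome 19 between positions 6184328 and 6593339. At their chromosome 19 loci, 20 of these 21 symbols were at 0 in all libraries. Among them, named after their zeros were seen, were *Sf1*, a general splicing factor, and *Men1*. The exception was the pseudogene *Hmgb1-ps4*, at 0.0498 FPKM in *Fmr1* KO replicate 1 and at 0 in the other libraries. Some of these symbols share a merged locus, such as *Sf1* and *Map4k2*, so the zeros are not all separate. Outside the stretch, the nearest genes with a mean of at least 1 FPKM were *Gm5510* (6152666 to 6153712) and *Rps6ka4* (6829084 to 6840989). Their levels were 2.57 to 3.52 FPKM and 12.2 to 13.9 FPKM. Because they were picked by level, they do not show where the zeros end.

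In the whole table, 1100 of 1685 symbols (65.3%) with a locus on a chromosome and another on a scaffold were at 0 everywhere, beside 16626 of 43533 symbols (38.2%) with a single chromosome locus. Among the partner genes described later, 7 had more than 1 locus and 2 of these were below 0.1 FPKM at every locus. They were *Dlg4*, which encodes the postsynaptic scaffold PSD-95 that binds neuroligins, and *Celf1*, a splicing regulator. *Dlg4* was at 0.0170 FPKM in WT replicate 3 and at 0 in the other libraries, and *Celf1* was at 0 in all. *Nrxn2* and these genes are therefore given only as listed at 0, with no statement on their expression, and the cause of the zeros was not tested.

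Among the neuroligins, *Nlgn2* (chromosome 11, 69823122 to 69837784, minus strand), whose protein organizes gephyrin and GABA receptors at inhibitory synapses, had 75.2, 75.8 and 73.7 FPKM in WT and 71.5, 76.4 and 75.2 FPKM in *Fmr1* KO. The genotypes overlapped, and the log2 change of -0.01 (SE 0.05, adjusted p = 0.944, limma) had a 95% interval from -7.54 to 6.60%. *Nlgn1* (chromosome 3, 25426215 to 26332460, minus strand), which encodes the neuroligin of excitatory synapses, had 27.9, 28.4 and 27.8 FPKM in WT and 29.6, 28.2 and 27.8 FPKM in *Fmr1* KO. Its groups overlapped as well, with a log2 change of 0.03 (SE 0.05, adjusted p = 0.858, limma) and an interval from -5.66 to 9.77%. The antisense gene *A830092H15Rik* overlaps 9.16% of the exon bases of *Nlgn1*, and reads of the 2 strands cannot be told apart because the library type is not given.

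*Nlgn3* (chromosome X, 101299168 to 101325963, plus strand) encodes neuroligin 3, which is also made by glial cells. It had 23.3, 29.1 and 30.0 FPKM in WT and 25.7, 28.6 and 28.7 FPKM in *Fmr1* KO. The replicate 1 library was the lowest of each genotype, and the groups overlapped. The log2 change was 0.02 (SE 0.10, adjusted p = 0.952, limma), and its wider interval, from -12.9 to 17.8%, reflects the spread of the WT libraries (27.5 ± 3.62 FPKM, SD, n = 3). The gene model *Gm21986* on the same strand overlaps 41.2% of the exon bases of *Nlgn3*, so the level of *Nlgn3* is uncertain where the counting split reads between them.

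The 3 neuroligin transcripts together summed to 126 to 133 FPKM in WT and 127 to 133 FPKM in *Fmr1* KO. *Nlgn2* made up 56.1 to 59.5% of the sum in WT and 56.4 to 57.4% in *Fmr1* KO. *Nlgn1* made up 21.2 to 22.0% and 21.1 to 23.3%, and *Nlgn3* 18.4 to 22.8% and 20.3 to 21.8%. The composition of the family thus overlapped between genotypes for each member. The ratio of *Nlgn2* to *Nlgn1*, the neuroligins of inhibitory and excitatory synapses, was 2.67 ± 0.0257 in WT libraries and 2.61 ± 0.165 in *Fmr1* KO libraries (mean ± SD, n = 3, exact permutation p = 1.0, two-sided).

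**Figure D2:**
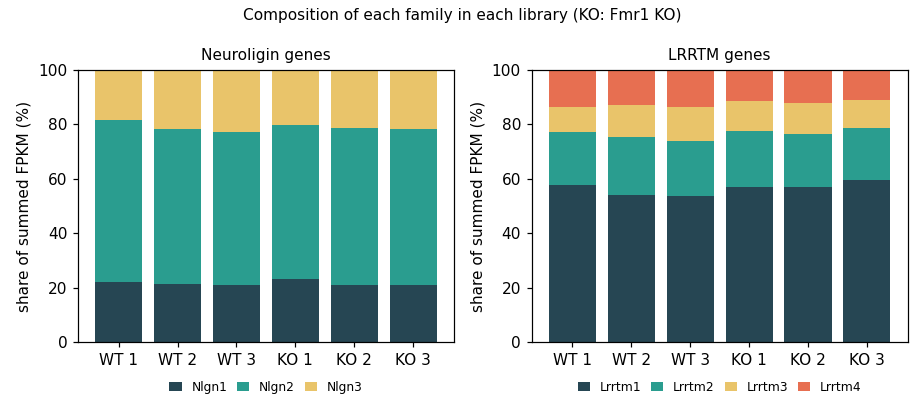
Share of each gene (y axis, percent) in the summed FPKM of the neuroligin genes (left) and of the LRRTM genes (right), with 1 bar per library. *Nlgn2* holds 56.1 to 59.5% of the neuroligin sum, *Lrrtm1* 53.7 to 59.5% of the LRRTM sum, and the *Lrrtm4* share is 12.9 to 13.8% in WT and 11.1 to 12.2% in *Fmr1* KO.

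The LRRTM genes encode postsynaptic leucine-rich repeat proteins that bind neurexins, and LRRTM4 also binds heparan sulfate proteoglycans such as glypican 4. All but *Lrrtm4* lie inside alpha-catenin genes on the opposite strand: *Lrrtm1* within *Ctnna2*, *Lrrtm2* within *Ctnna1* and *Lrrtm3* within *Ctnna3*. *Lrrtm1* (chromosome 6, 77242689 to 77257791, plus strand) had 39.8, 37.0 and 36.0 FPKM in WT and 39.2, 36.7 and 38.6 FPKM in *Fmr1* KO. The groups overlapped, with a log2 change of 0.02 (SE 0.06, adjusted p = 0.899, limma) and a 95% interval from -6.96 to 10.8%. *Lrrtm2* (chromosome 18, 35209003 to 35215024, minus strand), whose protein holds AMPA receptors at the synapse, had 13.3, 14.5 and 13.5 FPKM in WT and 14.2, 12.5 and 12.3 FPKM in *Fmr1* KO. The lowest pair were *Fmr1* KO libraries but *Fmr1* KO replicate 1 lay within the WT range, and the log2 change of -0.09 (SE 0.07, adjusted p = 0.607, limma) had an interval from -16.1 to 5.19%.

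*Lrrtm3* (chromosome 10, 63928472 to 64090277, minus strand) was the least abundant member, at 6.25, 8.09 and 8.35 FPKM in WT and 7.67, 7.42 and 6.80 FPKM in *Fmr1* KO. WT replicate 1 was the lowest library and the other WT libraries the highest, so that the *Fmr1* KO libraries lay inside the WT range. The log2 change was -0.04 (SE 0.11, adjusted p = 0.906, limma) with an interval from -18.5 to 15.9%. Of the host genes, *Ctnna2* had 42.9 to 44.3 FPKM in WT and 44.8 to 47.9 FPKM in *Fmr1* KO (log2 change 0.09, adjusted p = 0.402, limma), and *Ctnna1* had 25.9 to 30.0 and 26.9 to 30.6 FPKM (log2 change 0.01, adjusted p = 0.951, limma). *Ctnna3* stayed at or below 0.127 FPKM in all libraries, while *Lrrtm3* inside it was at 6.25 FPKM or more.

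*Lrrtm4* (chromosome 6, 80018877 to 80810143, plus strand), known for its high expression in dentate granule cells of the hippocampus, was the member with separated groups. Its level was 9.51, 8.87 and 9.10 FPKM in WT and 7.85, 7.83 and 7.18 FPKM in *Fmr1* KO. Each *Fmr1* KO library was thus below each WT library, as was the case for 10.3% of all tested loci in this direction. WT libraries averaged 9.16 ± 0.322 FPKM and *Fmr1* KO libraries 7.62 ± 0.377 FPKM (mean ± SD, n = 3). The log2 change was -0.26 (SE 0.07), a difference of -16.6% with a 95% interval from -24.9 to -7.50%. The unadjusted p of limma was 0.00346 and the adjusted p was 0.142, with 319 tested loci having a smaller p, so the difference did not pass correction over all loci. The exact permutation test gave p = 0.1 (two-sided), the smallest value that 3 against 3 libraries can give. The antisense gene model *Gm4409* overlaps 25.1% of the exon bases of *Lrrtm4*, and without a known library type its reads cannot be told apart from those of *Lrrtm4*.

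**Figure D3:**
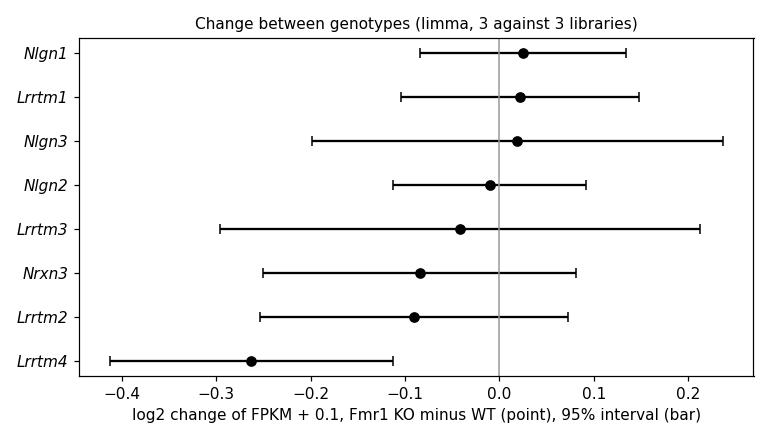
Log2 change of FPKM + 0.1 between *Fmr1* KO and WT (x axis) for the 8 expressed genes (y axis), with points for the limma estimate and bars for its 95% interval. The interval of *Lrrtm4* lies below 0, at -0.41 to -0.11, and those of the other 7 genes include 0.

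Within the LRRTM family, the *Lrrtm4* share and its ratios to *Lrrtm1* and *Lrrtm3* separated the genotypes, while its ratio to *Lrrtm2* did not. The 4 genes together summed to 66.9 to 68.9 FPKM in WT and 64.4 to 68.9 FPKM in *Fmr1* KO. *Lrrtm1* held 53.7 to 57.8% of this sum in WT and 56.9 to 59.5% in *Fmr1* KO, *Lrrtm2* 19.4 to 21.2% and 18.96 to 20.6%, and *Lrrtm3* 9.07 to 12.5% and 10.5 to 11.5%. The *Lrrtm4* share did not overlap, at 12.9 to 13.8% in WT and 11.1 to 12.2% in *Fmr1* KO. The ratio of *Lrrtm4* to *Lrrtm1* averaged 0.244 ± 0.00794 in WT libraries and 0.200 ± 0.0135 in *Fmr1* KO libraries (mean ± SD, n = 3, exact permutation p = 0.1), and again the libraries did not overlap. The ratio of *Lrrtm4* to *Lrrtm2* was 0.665 in WT and 0.589 in *Fmr1* KO and did overlap (exact permutation p = 0.2, n = 3 each). The ratio of *Lrrtm4* to *Lrrtm3* was 1.24 ± 0.247 in WT libraries and 1.04 ± 0.0184 in *Fmr1* KO libraries, and did not overlap (mean ± SD, n = 3, exact permutation p = 0.1). The WT mean rests much on replicate 1, at 1.52 beside 1.10 and 1.09 in the other WT libraries. The share and these ratios use the *Lrrtm4* values and are not independent of its change. How often other gene pairs separate in this way was not computed.

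Because *Lrrtm4* is known from dentate granule cells, a list of 6 genes of these cells (*Prox1*, *Dock10*, *C1ql2*, *Calb1*, *Dsp* and *Tdo2*) was added after the *Lrrtm4* values had been seen. Of the 6, 5 could be tested, all 5 had a log2 change below 0, and 3 (*Prox1*, *C1ql2* and *Dsp*) had an unadjusted p below 0.05, beside 7.77% of all tested loci in this direction. The genes of the list were named after their own values were seen, and *C1ql2* is counted again among the neurexin ligands below. The count is therefore a description only and no follow-up of *Lrrtm4*. *Prox1*, a transcription factor of granule cells but not of these cells alone, had 11.8, 13.3 and 11.9 FPKM in WT and 10.2, 9.49 and 10.4 FPKM in *Fmr1* KO (log2 change -0.29, adjusted p = 0.130, limma). *Dock10*, also a granule cell gene, had 6.96, 7.57 and 7.56 FPKM in WT and 6.89, 7.07 and 7.88 FPKM in *Fmr1* KO, with overlapping groups and a log2 change of -0.02 (adjusted p = 0.945, limma). *Calb1* overlapped too, with a log2 change of -0.13 (adjusted p = 0.453, limma). The summed level of the list was 51.7 to 59.7 FPKM in WT and 47.0 to 49.9 FPKM in *Fmr1* KO. In bulk RNA, fewer cells of a type and less RNA per cell cannot be told apart, and the part of granule cell number in the *Lrrtm4* values was not tested.

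The levels of the 8 expressed genes followed the order *Nlgn2*, *Nrxn3*, *Lrrtm1*, *Nlgn1*, *Nlgn3*, *Lrrtm2*, *Lrrtm4* and *Lrrtm3*, from high to low. Neighbours in this order were compared within each library by an exact sign-flip permutation test, in 7 pairs with Benjamini-Hochberg adjustment; the order comes from the same values. *Nlgn2* exceeded *Nrxn3* by 1.80-fold, *Lrrtm1* exceeded *Nlgn1* by 1.34-fold, *Nlgn3* exceeded *Lrrtm2* by 2.06-fold, *Lrrtm2* exceeded *Lrrtm4* by 1.60-fold and *Lrrtm4* exceeded *Lrrtm3* by 1.13-fold, each in 6 of 6 libraries (permutation p = 0.03125, the smallest possible, adjusted p = 0.04375). The other neighbours did not separate. *Nrxn3* was above *Lrrtm1* in 5 of 6 libraries (1.09-fold, adjusted permutation p = 0.0729). *Nlgn1* was above *Nlgn3* in 2 of 6 libraries (1.03-fold, adjusted permutation p = 0.531). Because the pairs were set by these values, the p-values describe how steady the order was and do not test it independently. The places of *Nlgn1*, *Nlgn3* and *Lrrtm4* are less certain because of the overlapping gene models named above. Smaller antisense overlaps exist for *Nrxn3* (*Gm37980*, 3.48% of exon bases) and *Lrrtm2* (*Ctnna1*, 1.58%). The annotation behind the deposited values is not given, so whether these gene models took part in the counting is unknown.

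The largest deviations of a member from the mean of its genotype were in WT replicate 1. In that library *Lrrtm3* was 0.26 and *Nlgn3* 0.23 log2 units below the WT mean, while *Nrxn3* was 0.11 and *Lrrtm1* 0.08 log2 units above it. Over the 6 libraries, the pair of members with the highest Pearson correlation was *Nlgn3* and *Lrrtm3* (r = 0.716) and that with the lowest was *Nlgn3* and *Lrrtm1* (r = -0.861). These are descriptions over 6 libraries of 2 genotypes. The summed level of 8 astrocyte markers was 1397 FPKM in WT replicate 1, the lowest of all libraries, beside 1490 to 1661 FPKM in the other WT libraries and 1468 to 1625 FPKM in *Fmr1* KO, and its part in these deviations was not tested.

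**Figure D4:**
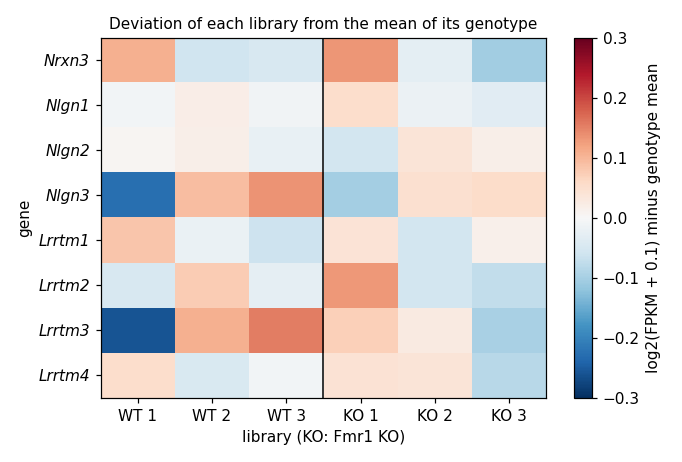
Deviation of each library from the mean of its genotype on the log2(FPKM + 0.1) scale (colour, red above and blue below) for the 8 expressed genes (rows) in the 6 libraries (columns). The darkest cells are *Lrrtm3* and *Nlgn3* in WT replicate 1, at -0.26 and -0.23.

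Without the replicate 1 libraries of both genotypes, an alternative chosen after seeing the data, 3 members were lower at an unadjusted p below 0.05 instead of 1, beside 7.76% of the loci tested in that fit. *Lrrtm2* then had a log2 change of -0.18 (unadjusted p of 0.0292 and adjusted p = 0.263, limma). *Lrrtm3* had a log2 change of -0.21 (unadjusted p of 0.0361 and adjusted p = 0.279, limma). *Lrrtm4* had a log2 change of -0.26 (unadjusted p of 0.0134 and adjusted p = 0.202, limma), so none of the 3 passed adjustment over all loci with 2 libraries per genotype.

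By the likeness of their values over the 6 libraries, the loci closest to *Lrrtm4* among 13194 others were *Gm33862* (Pearson r = 0.996), *Plcd3*, a phospholipase C (r = 0.993), and *Trmt2b*, a mitochondrial tRNA methyltransferase (r = 0.992). *Plcd3* had 3.88, 3.52 and 3.75 FPKM in WT and 3.18, 3.17 and 2.94 FPKM in *Fmr1* KO. In all, 84 loci reached an r of 0.95 or more, which over 6 libraries and so many loci is a description only.

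The genes around these adhesion molecules were read from 6 lists with 112 genes, of which 105 were tested. Of these, 55 had a log2 change above 0 and 50 below 0, with a median of 0.006 beside 0.005 for all tested loci. None passed the adjusted threshold in limma. At an unadjusted p below 0.05 there were 11 higher and 10 lower genes, beside 6.99 and 7.77% of all tested loci in the same directions. The lists were written with earlier results of these data known, so their counts are a description only.

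Among 22 ligands and co-receptors of neurexins, 20 were tested, with a median log2 change of -0.03. An unadjusted limma p below 0.05 was reached by 1 higher and 7 lower genes, beside 6.99% and 7.77% of all tested loci. *Adgrl2*, which encodes the adhesion receptor latrophilin 2, was the gene that was higher, with 13.7, 17.0 and 17.5 FPKM in WT and 17.5, 19.9 and 19.6 FPKM in *Fmr1* KO (log2 change 0.25, adjusted p = 0.287, limma). Among the lower genes, *C1ql2*, a secreted C1q-like protein of mossy fiber synapses that is also on the granule cell list, had 6.73, 6.07 and 4.81 FPKM in WT and 4.31, 3.89 and 4.52 FPKM in *Fmr1* KO (log2 change -0.45, adjusted p = 0.170, limma). *Igsf21*, which encodes a neurexin 2 ligand of inhibitory synapses, had 34.9, 32.7 and 31.6 FPKM in WT and 29.9, 27.9 and 29.1 FPKM in *Fmr1* KO (log2 change -0.19, adjusted p = 0.192, limma). *Nxph3*, a secreted neurexophilin, had 6.75, 7.51 and 5.98 FPKM in WT and 4.996, 5.54 and 5.56 FPKM in *Fmr1* KO (log2 change -0.32, adjusted p = 0.197, limma). The *Fmr1* KO libraries of these 3 genes lay below the WT libraries, as did those of 10.3% of all tested loci. The remaining 4 lower genes were *Cbln1*, *C1ql3*, *Clstn3* and *Nxph4*, named after their values were seen.

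**Figure D5:**
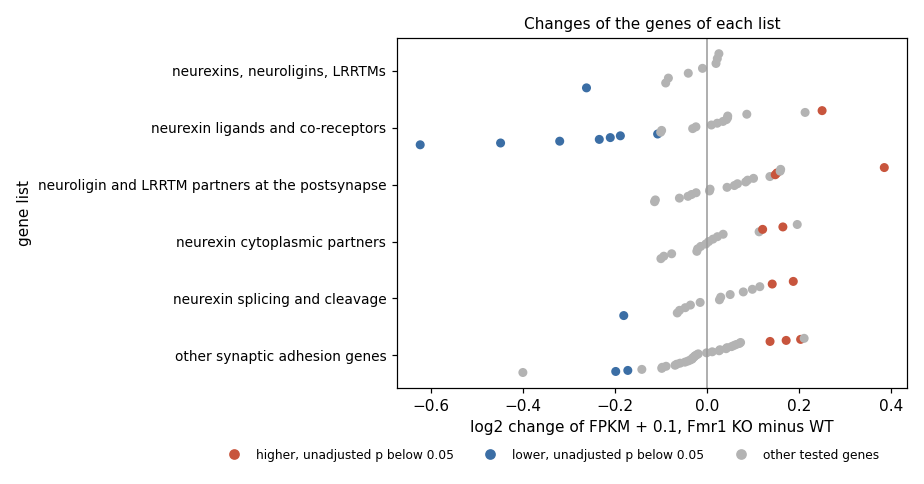
Log2 change of FPKM + 0.1 between *Fmr1* KO and WT (x axis) of each tested gene, by list (y axis), with genes at an unadjusted p below 0.05 in red (higher) or blue (lower) and the others in grey; the host genes are left out. The 7 blue points of the neurexin ligands reach from -0.62 to -0.11, *Lrrtm4* is the blue point of the top row, and the red point farthest to the right is *Mdga1* at 0.38.

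On the postsynaptic side, 20 of 21 scaffold and partner genes of neuroligins and LRRTM proteins were tested, with a median log2 change of 0.06. An unadjusted limma p below 0.05 was reached by no lower gene (7.77% of all tested loci) and by 3 higher genes (6.99%). *Mdga1*, whose protein binds neuroligin 2 and blocks its contact with neurexins, had 11.0, 12.6 and 11.9 FPKM in WT and 13.9, 15.8 and 16.8 FPKM in *Fmr1* KO. The groups did not overlap, as held for 10.8% of all tested loci in this direction. The log2 change of 0.38 (SE 0.08) had an unadjusted p of 0.00139 and an adjusted p of 0.101 in limma. The scaffold genes *Dlg2* (98.1 ± 4.81 FPKM in WT and 109 ± 1.75 FPKM in *Fmr1* KO, log2 change 0.15, adjusted p = 0.222, limma) and *Shank1* (log2 change 0.15, adjusted p = 0.336, limma) were the other 2.

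All 15 genes for cytoplasmic partners of neurexins were tested, with a median log2 change of 0.003. An unadjusted limma p below 0.05 was reached by no lower gene (7.77% of all tested loci) and by 2 higher genes (6.99%). These were *Epb41l1*, a protein 4.1 cytoskeletal linker (89.7 ± 1.87 FPKM in WT and 100.5 ± 1.64 FPKM in *Fmr1* KO, log2 change 0.16, adjusted p = 0.149, limma), and *Lin7c*, a PDZ domain scaffold (log2 change 0.12, adjusted p = 0.306, limma). Of 16 genes for regulators of neurexin splicing and for proteases, 14 were tested, with a median of 0.03. At an unadjusted limma p below 0.05, 2 were higher (6.99% of all tested loci) and 1 was lower (7.77%). They were the proteases *Mmp24* (log2 change 0.19) and *Adam10*, which cleaves neurexins and neuroligins among other substrates (log2 change 0.14), and the presenilin gene *Psen2* (log2 change -0.18), with adjusted p between 0.222 and 0.271 in limma.

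Of 35 other synaptic adhesion genes, 34 were tested, with a median log2 change of -0.03. An unadjusted limma p below 0.05 was reached by 3 higher and 2 lower genes, beside 6.99% and 7.77% of all tested loci. *Ptprd*, a presynaptic receptor phosphatase, had 22.5, 23.9 and 23.1 FPKM in WT and 27.2, 26.4 and 26.4 FPKM in *Fmr1* KO (log2 change 0.20, adjusted p = 0.131, limma). *Flrt3* (log2 change 0.17) and *Ntng2* (0.14) were also higher, and *Il1rap* (-0.17), a synaptic ligand of the PTPRD protein, and *Igsf9b* (-0.20), an adhesion protein of inhibitory synapses, were lower. The 3 host genes of nested LRRTM genes form the sixth list and were given above.

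Marker lists show which cells were in the cultures. The summed level was 1463 to 1554 FPKM in WT and 1501 to 1621 FPKM in *Fmr1* KO for 8 pan-neuronal markers, 844 to 881 and 884 to 950 FPKM for 7 excitatory markers, and 350.2 to 368 and 326 to 375 FPKM for 8 inhibitory markers. It was 346 to 402 and 396 to 439 FPKM for 8 markers of the oligodendrocyte lineage, and 47.7 to 52.3 and 39.1 to 47.1 FPKM for 8 markers of fibroblasts and mural cells. Microglial markers summed to 4.16 to 6.29 FPKM in WT and 1.06 to 2.41 FPKM in *Fmr1* KO, with *Tmem119* and *Aif1* at 0, and 7 endothelial markers to 2.98 to 3.39 and 2.17 to 2.72 FPKM, with *Cldn5* at 0. Of these sums, those of the excitatory, microglial, endothelial and fibroblast lists did not overlap between genotypes. These sums rest on their most abundant genes and do not describe every marker. At an unadjusted limma p below 0.05, pan-neuronal markers were 1 higher and 1 lower, inhibitory markers 2 and 2, and excitatory markers 1 and 0. Astrocyte markers were 0 and 2, oligodendrocyte lineage markers 2 and 0, and fibroblast and mural markers 0 and 1. All 3 tested microglial markers were lower (median log2 change -2.03). The shares of all tested loci were 6.99% higher and 7.77% lower. In the excitatory list, *Camk2a* was higher, at 480.3 to 508 FPKM in WT and 513 to 592 FPKM in *Fmr1* KO. *Slc17a7*, the vesicular glutamate transporter, was lower, at 285 to 290.2 and 269 to 279.9 FPKM. The libraries of neither gene overlapped between genotypes, as held for 10.8% of tested loci upward and 10.3% downward. In the fibroblast and mural list, *Dcn* made up most of the sum, at 39.0 to 43.8 FPKM in WT and 30.1 to 39.0 FPKM in *Fmr1* KO, while the collagen genes *Col1a1* and *Col1a2* had higher means in *Fmr1* KO (0.418 against 0.598 FPKM and 0.303 against 0.485 FPKM, WT first), below the level for testing. None of the tested ones passed the adjusted threshold, and the part of cell composition in the values of the adhesion genes was not tested.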

How the data were processed

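Total RNA of 6 primary hippocampal cultures (3 WT, 3 *Fmr1* KO) was sequenced. The authors cleaned reads with Fastx Clipper and sickle, used TopHat2 for mapping to GRCm38, Cufflinks for gene models and Cuffdiff for the comparison of genotypes. Sources used here do not give versions, annotation, library type or scaling. The deposited table gives FPKM per library. Its group FPKM, fold changes, p-values and q-values are the authors' own comparison and were not used. FPKM hold no read counts, so the depth is unknown and the spread between libraries sets the precision.

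For a symbol with several loci, the locus with the highest mean FPKM was taken. Loci with a mean of at least 1 FPKM in either genotype (13195 of 47086) were fitted as log2(FPKM + 0.1) with limma 3.58.1 in R 4.3.3, with a mean-variance trend, genotype as the only term, two-sided tests and Benjamini-Hochberg adjustment. Fold changes on this scale understate those of low genes. Single values were compared by exact permutation. Gene positions are from GENCODE vM21 on GRCm38.

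The members, lists and tests were chosen with earlier results of these data known. Named were all members, *Fmr1*, host genes, up to 3 genes per list and direction with the lowest unadjusted p below 0.05, marker genes, and the 3 loci most like *Lrrtm4*; the other genes, such as those near *Nrxn2*, with a second locus or overlapping a member, the remaining lower neurexin ligands and the granule cell list, were named after their values were seen. As alternatives, the pseudocount was 1 or 0.01 and the FPKM minimum 0 or 5; others were centring, no trend, libraries left out, a replicate block, removal of a trend with gene span (lowess, span 0.3), and summed loci. Some genes are not reported here.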

Additional observations from a re-analysis of the deposited data

How the results depend on the processing

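Over 16 alternatives the log2 change of *Lrrtm4* stayed between -0.29 and -0.22, with an unadjusted p of 0.0033 to 0.0169 and an adjusted p of 0.104 to 0.370. No member passed the adjusted threshold in any of the 16. Of the values of the 8 genes under these alternatives, 115 kept the direction of the main value and 13 had the opposite sign, all for genes with a main log2 change within 0.05 of 0. The other FPKM minima, the fit without the trend, the replicate block and the summed loci cannot move the log2 changes of these genes. Their part of the 115 was therefore fixed in advance. For the 8 genes, the summed loci only repeat the main fit, as each has a single locus. Leaving out single libraries, the range was -0.0095 to 0.064 for *Lrrtm1*, -0.17 to 0.035 for *Lrrtm3*, -0.00061 to 0.043 for *Nlgn1*, -0.030 to 0.017 for *Nlgn2* and -0.094 to 0.086 for *Nlgn3*. It was -0.16 to -0.05 for *Lrrtm2* (lowest unadjusted limma p 0.0514) and -0.15 to -0.03 for *Nrxn3* (0.0602), the lowest value of both being without *Fmr1* KO replicate 1. Without the replicate 1 libraries, chosen after seeing the data, the change was -0.0049 for *Nlgn1*, 0.020 for *Nlgn2* and -0.043 for *Nlgn3*, and 3 members were lower at an unadjusted p below 0.05. With the trend with gene span removed, it was 0.0012 for *Nlgn2*. Same-numbered libraries deviated together with r of 0.243, 0.0577 and 0.0801. Differently numbered libraries had r of -0.152 to 0.0781, with the negative values in pairs that held a replicate 1 library. These values do not show that the numbers pair the libraries. With the replicate number as a block, the unadjusted limma p of *Nrxn3* was 0.0899, beside 0.277 in the main fit. The count of members lower at an unadjusted p below 0.05 stayed at 1 in the block fit, and *Lrrtm4* had an adjusted p of 0.104. The adjusted calls over all loci went from 12 higher and 23 lower to 29 and 36. They were 6 and 9 without an FPKM minimum, 7 and 14 without the trend, 20 and 34 with a minimum of 5 FPKM, 25 and 31 with the span trend removed, 11 and 12 without the replicate 1 libraries, and 4 to 8 and 10 to 14 with 1 library left out. The depth is unknown, and 3 libraries per genotype gave intervals for the other 7 members that reach up to 18.5% below or 17.8% above the WT level.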
